A study of Mus musculus with 3 samples.

Results

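The 38 genes described here encode the B cell antigen receptor's signalling pair, its co-receptors, and the kinases, adaptors, lipid enzymes and phosphatases that carry or restrain its signal. They were chosen by name, and all 38 symbols were found among the 33605 gene symbols of the tables. All 38 also passed the minimum level used, a mean of 1 RPKM over the 3 libraries, as did 14790 genes in all. RPKM is a read count scaled to gene length and library size. RNA came from splenic B cells of C57BL/6 mice that lacked CD43, a surface protein used to set aside activated B cells and many non-B cells. All cultures received lipopolysaccharide (LPS), which signals through Toll-like receptors, together with the cytokine interleukin-4 for 3 days. They were grown with DMSO as the control, with JQ1+ at 80 nM, or with flavopiridol at 30 nM. JQ1 displaces BET bromodomain proteins from acetylated chromatin, and flavopiridol inhibits cyclin-dependent kinases including Cdk9. There was 1 library per treatment, so the spread between cultures is unknown and no difference below could be tested.

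On a B cell the antigen-binding immunoglobulin is held at the membrane by the Cd79a and Cd79b chains. Their cytoplasmic tails are phosphorylated by Lyn, Blk and Fyn when antigen binds, and the kinase Syk then docks on them. Syk and Btk, assembled on the adaptor Blnk, activate phospholipase Plcg2, which leads through calcium to NFAT factors and through Prkcb to NF-kB. Inhibitory receptors and phosphatases damp the same steps. LPS and interleukin-4 act through other receptors, so these cultures hold the receptor pathway in cells activated by another route.

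The deposited counts summed to 59786847 reads in DMSO, 51247080 in JQ1+ and 50184508 in flavopiridol. The 6 B cell markers, Pax5, Ebf1, Cd79a, Cd79b, Ms4a1 and Cd22, were all above 1 RPKM in every library. They summed to 3261, 4393 and 3484 RPKM in DMSO, JQ1+ and flavopiridol. Cd79a, Cd79b, Ms4a1 and Cd22 are among the 38, so the sum mostly repeats their values below. Outside the 38, Pax5 stood at 137.2, 167.8 and 164.5 RPKM and Ebf1 at 67.05, 104.1 and 38.33 RPKM. The T cell list summed to 5.10, 4.25 and 7.47 RPKM over 8 markers, with 6 of them below 1 RPKM in each library. The receptor chain genes Cd3d, Cd3e and Cd3g reached at most 0.862 RPKM, in JQ1+ for Cd3d. The myeloid list summed to 28.4, 20.1 and 33.7 RPKM over 7 markers, most of it Cd68. Within it Emr1 stood at 0.922, 0.801 and 9.47 RPKM, highest in flavopiridol. The natural killer and erythroid lists summed to at most 3.00 and 0.645 RPKM. The dendritic list moved most, from 90.0 RPKM in DMSO to 10.7 in JQ1+ and 35.1 in flavopiridol, through Batf3 and Flt3, while its defining marker Itgax was at most 0.03 RPKM. Its part in the results below was not tested. The plasma cell list summed to 1380, 1331 and 1013 RPKM, most of it Igj and Xbp1. Its other members lay above DMSO in both drugs, Prdm1 at 26.9, 67.2 and 56.5 RPKM and Sdc1 at 13.4, 17.3 and 32.6 RPKM. In bulk RNA, fewer cells of a type and less RNA per cell cannot be told apart, and the drugs' direct and indirect effects over 3 days cannot be told apart either.

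Most of these genes were well expressed in the control cells. In DMSO 33 of 38 lay above the median of all genes, 19.2 RPKM, and their own median was 73.7 RPKM. The median of the 38 was 103 RPKM in JQ1+ and 87.5 RPKM in flavopiridol, and 16, 20 and 14 genes reached at least 100 RPKM in DMSO, JQ1+ and flavopiridol. Cd79b was the highest of the 38 in every library, and the complement receptor gene Cr2 and the calcium-responsive factor gene Nfatc2 held the lowest places, from 2.11 to 3.48 RPKM. The order below the top changed with treatment. Cd22 was the second highest in DMSO and stood at rank 7 in JQ1+ and 5 in flavopiridol, while Ms4a1 stood at rank 3 in DMSO and 2 in both drugs. Syk stood at rank 24 in DMSO, 14 in JQ1+ and 15 in flavopiridol, and Ptprj at 36, 27 and 31.

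**Figure D1:**
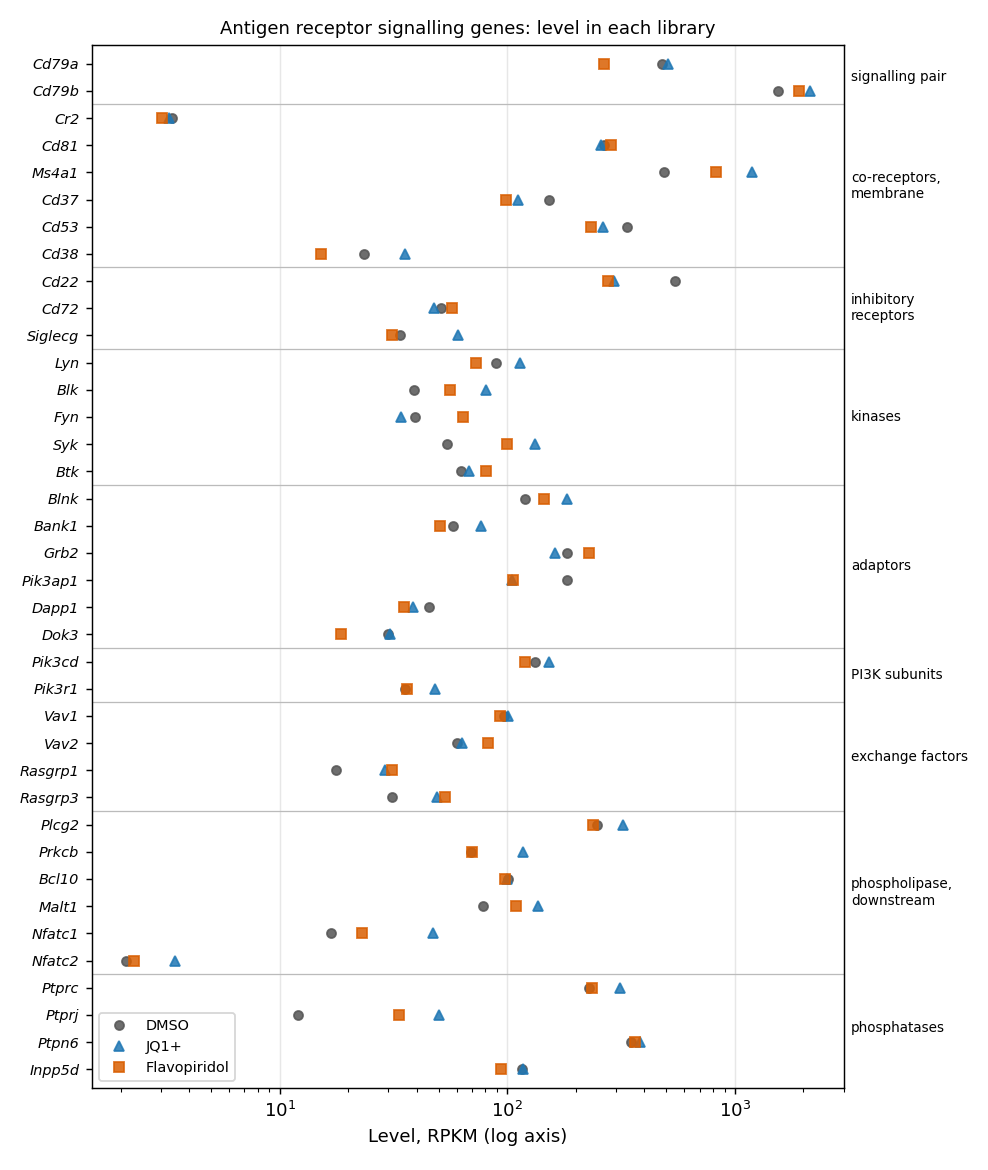
Level of each of the 38 genes in RPKM on a log axis, grouped by role, with 1 point per library and no error bar because each treatment has 1 library. Cd79b lies furthest right in each library, and Ptprj shows the widest gap between DMSO (12.0 RPKM) and JQ1+ (50.2 RPKM).

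Rose and fell are used here for a log2 change of RPKM + 1 of at least 1 in either direction. This 2-fold rule slightly understates the change of low genes. With JQ1+ 5 of 38 genes rose: Ms4a1, Syk, Blk, Nfatc1 and Ptprj. Over all measured genes 1.98% rose, against 13.2% of the 38. None of the 38 fell, where 5.29% of all genes did. With flavopiridol only Ptprj rose, 2.63% of the 38 against 3.55% of all genes, and none fell, against 2.88%. Set directly against flavopiridol, JQ1+ had 2 genes higher, Nfatc1 and Cd38, where 2.06% of all genes were higher, and none lower, where 6.87% were. The comparisons with DMSO share that library. Rescaling by the median of ratios brought the median of all genes to within 0.04 of 0 in each comparison. After it 5 genes still rose with JQ1+, where 2.59% of all genes did. Cd22 and Cd79a then fell with flavopiridol, where 3.97% of all genes did, and Siglecg and Cd79a joined Nfatc1 and Cd38 as higher in JQ1+ than in flavopiridol, where 3.52% of all genes were.

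A lower threshold was also applied. At a log2 change of at least 0.6, 11 of the 38 were higher with JQ1+ (5.81% of all genes) and 2 were lower (12.2%). With flavopiridol 6 were higher (11.5%) and 6 lower (7.30%). Between the drugs 7 were higher in JQ1+ (5.27%) and 1 lower (20.0%). The median log2 change of the 38 was 0.28 with JQ1+ beside -0.08 for all genes, 0.03 with flavopiridol beside 0.13, and 0.32 between the drugs beside -0.21. Relative to the median of all genes that of the 38 was 0.36 with JQ1+, -0.10 with flavopiridol and 0.53 for JQ1+ against flavopiridol. By sign alone, 27 of the 38 were above DMSO with JQ1+, as were 40.2% of all genes, and 21 with flavopiridol, as were 63.7%. Against the median of all genes instead, 30 of the 38 were above with JQ1+ and 15 with flavopiridol.

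**Figure D2:**
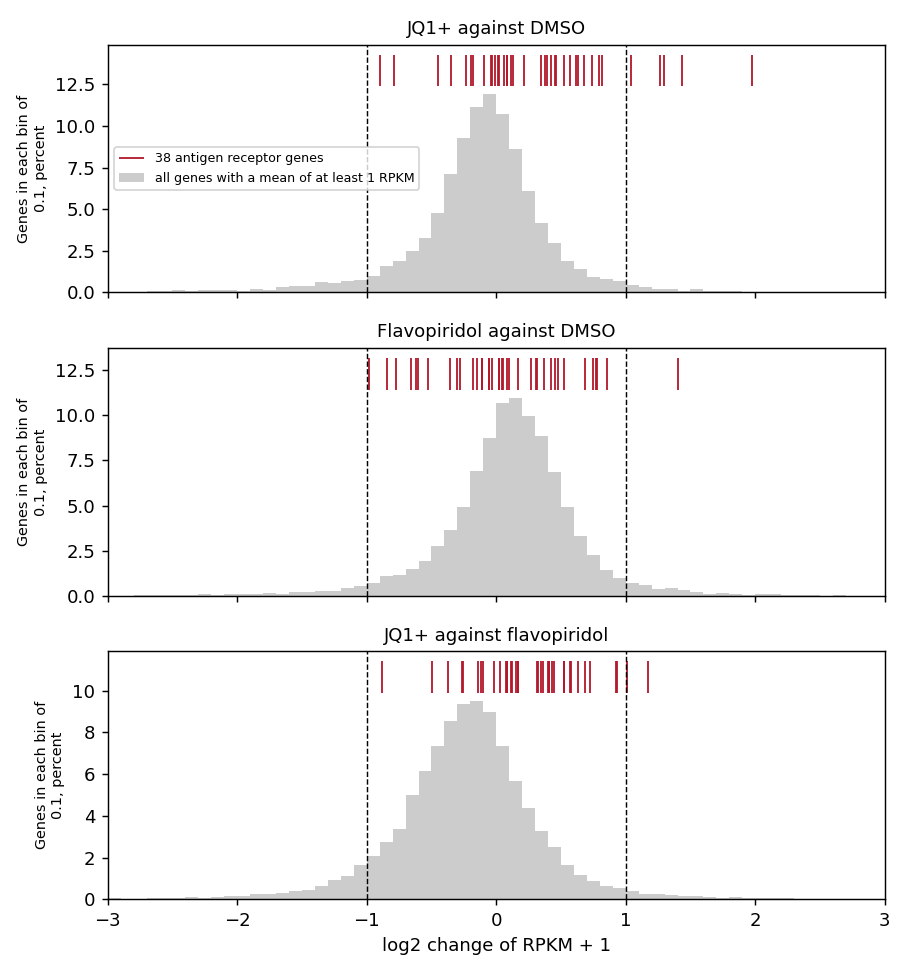
Percent of all 14790 measured genes in each bin of log2 change of RPKM + 1 (grey bars; values beyond 3 in size are outside the axis) with the 38 genes as red ticks above, for each comparison; dashed lines mark the 2-fold rule. With JQ1+ 5 ticks lie past the upper line and none past the lower one, and with flavopiridol 1 does.

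The signalling pair did not move as a unit. Cd79b stood at 1545 RPKM in DMSO, 2127 in JQ1+ and 1908 in flavopiridol. Cd79a stood at 477 RPKM in DMSO, 507 in JQ1+ and 266 in flavopiridol. Thus Cd79b was above its DMSO level with both drugs, and Cd79a was below it only in the flavopiridol library, at a ratio of 0.557 (95% interval 0.531 to 0.585). These intervals cover counting error only. By the 2-fold rule with the pseudocount neither gene passed, Cd79a having a log2 change of -0.84 with flavopiridol, but it passed at -1.01 after the libraries were rescaled by the median of ratios. The ratio of Cd79a to Cd79b within a library does not depend on the library total. It was 0.309 in DMSO (0.299 to 0.319), 0.238 in JQ1+ (0.231 to 0.246) and 0.139 in flavopiridol (0.134 to 0.146), so the 3 intervals did not overlap.

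Among co-receptors and membrane organisers Ms4a1 was the one gene that rose. Ms4a1, which encodes CD20, a tetra-membrane-spanning protein of mature B cells, stood at 486 RPKM in DMSO, 1193 in JQ1+ and 829 in flavopiridol. It rose 2.46-fold with JQ1+ (interval 2.40 to 2.52) and stood at 1.71 times DMSO with flavopiridol (interval 1.66 to 1.75). The tetraspanin genes Cd37 and Cd53, whose products organise membrane receptors, lay the other way in both drugs. Cd37 stood at 152, 111 and 98.6 RPKM in DMSO, JQ1+ and flavopiridol. Cd53 stood at 337, 264 and 234 RPKM. The third tetraspanin, Cd81, part of the B cell co-receptor complex, stood at 267, 259 and 286 RPKM, within 1.10 times from lowest to highest.

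Cd38 and Cr2 complete this group. Cd38, an ectoenzyme that consumes NAD, stood at 23.5 RPKM in DMSO, 35.4 in JQ1+ and 15.1 in flavopiridol. The drugs thus lay on opposite sides of DMSO, and Cd38 was 2.34-fold higher in JQ1+ than in flavopiridol (interval 2.03 to 2.70). Cr2, the complement receptor that joins Cd81, stood at 3.37, 3.26 and 3.05 RPKM, and its interval included a ratio of 1 in all 3 comparisons.

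Inhibitory receptors each followed their own pattern. Cd22, a sialic acid-binding receptor that recruits the phosphatase Ptpn6, stood at 548 RPKM in DMSO, 294 in JQ1+ and 277 in flavopiridol. DMSO was therefore 1.87 times as high as JQ1+ (interval 1.82 to 1.92) and 1.98 times as high as flavopiridol (interval 1.92 to 2.03), just inside the 2-fold rule. A part of its exon length, given with Ptpn6 below, overlaps an opposite-strand gene. With flavopiridol the log2 change of -0.98 became -1.15 under median-of-ratios rescaling, which passes the rule. Siglecg, a related receptor, stood at 33.8, 60.5 and 31.2 RPKM, higher in JQ1+ than in both other libraries. It was 1.94 times as high in JQ1+ as in flavopiridol (interval 1.79 to 2.10). Cd72, which binds CD100, stood at 50.9, 47.5 and 57.3 RPKM. In the GENCODE M21 annotation 41.6% of its exon length overlaps Tesk1 on the opposite strand, so without stated strand use its reads are uncertain. Tesk1 itself stood at 12.8, 16.1 and 15.1 RPKM.

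The proximal kinases changed order. Syk stood at 54.5 RPKM in DMSO, 132 in JQ1+ and 99.5 in flavopiridol. It rose 2.43-fold with JQ1+ (interval 2.33 to 2.52) and stood at 1.83 times DMSO with flavopiridol (interval 1.75 to 1.90). Blk, a Src-family kinase largely restricted to B cells, stood at 38.7, 80.7 and 56.0 RPKM. It rose 2.09-fold with JQ1+ (interval 1.90 to 2.29), the smallest of the 5 rises. Its log2 change of 1.04 was 0.97 with a pseudocount of 5 RPKM, which no longer passes.

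Lyn, Fyn and Btk stayed inside the 2-fold rule. Lyn, which both starts the signal and phosphorylates inhibitory receptors, stood at 88.9, 113 and 73.0 RPKM, highest in JQ1+. Fyn, a Src-family kinase that is also prominent in T cells, stood at 39.2, 34.1 and 63.7 RPKM, highest in flavopiridol. Their ratio, Lyn to Fyn, was 2.27 in DMSO, 3.32 in JQ1+ and 1.15 in flavopiridol, 2.90 times apart from lowest to highest. Btk, the kinase mutated in X-linked immunodeficiency, stood at 62.3, 67.7 and 80.9 RPKM. Syk to Btk was 0.874 in DMSO (interval 0.823 to 0.929), 1.95 in JQ1+ (1.85 to 2.07) and 1.23 in flavopiridol (1.16 to 1.30). In DMSO, therefore, Syk lay below Btk per length, and in both drug libraries above it. The order of the 5 kinases was Lyn, Btk, Syk, Fyn, Blk in DMSO, Syk, Lyn, Blk, Btk, Fyn in JQ1+ and Syk, Btk, Lyn, Fyn, Blk in flavopiridol. In DMSO Fyn and Blk lay at 39.2 and 38.7 RPKM, too close to rank.

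**Figure D3:**
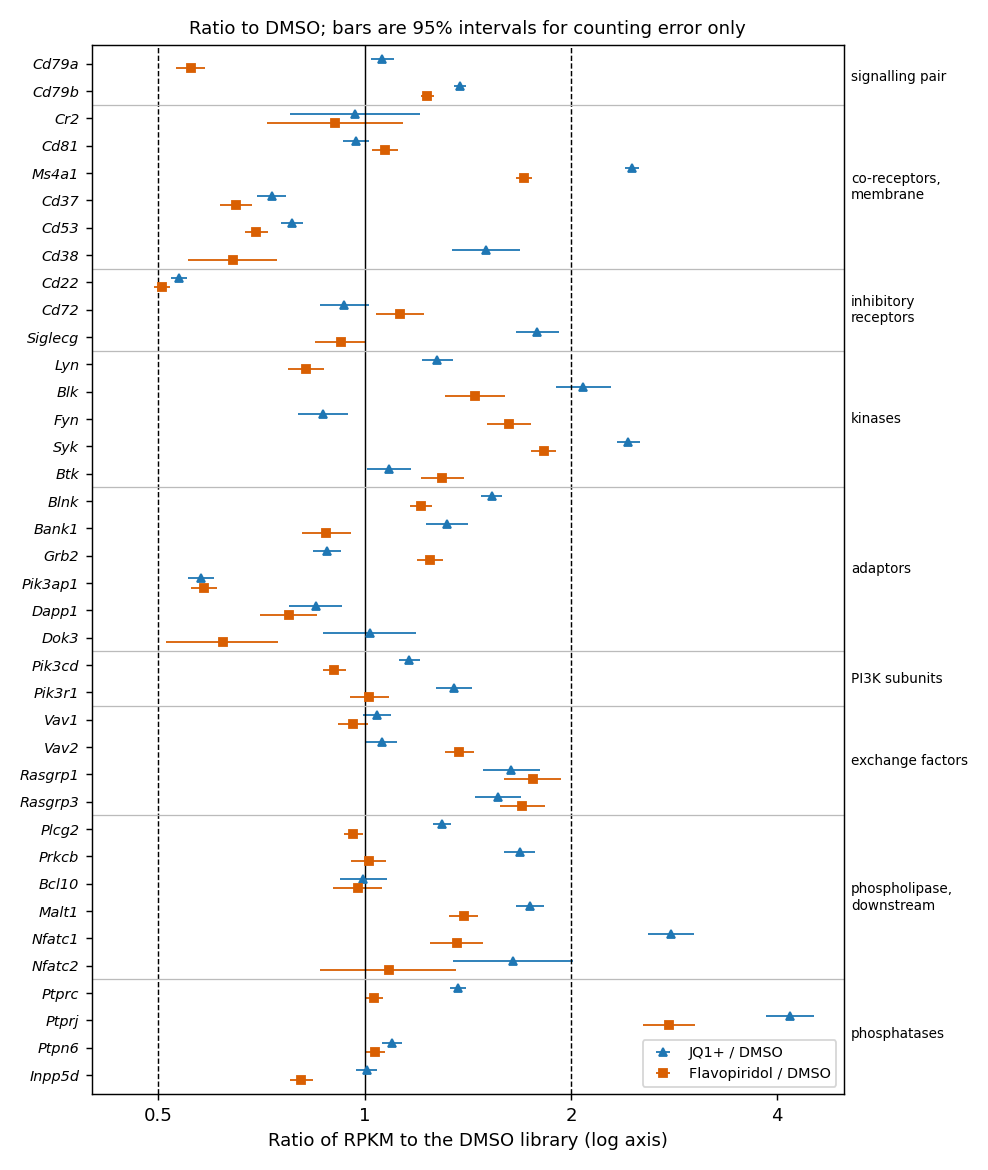
Ratio of RPKM to the DMSO library on a log axis for the 38 genes, with bars for the 95% counting interval and dashed lines at 0.5 and 2. Ptprj lies past 2 with both drugs (4.17 and 2.78), and Cd22 lies nearest 0.5 (0.536 and 0.506).

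No adaptor gene passed the 2-fold rule in any comparison. Pik3ap1, an adaptor that brings phosphoinositide 3-kinase to the receptor and to Toll-like receptors, was the furthest below DMSO, at 182 RPKM in DMSO, 105 in JQ1+ and 106 in flavopiridol. The drug libraries differed by less than counting error, with a ratio of 0.989 (interval 0.940 to 1.04). Blnk, the scaffold for Btk and Plcg2, stood at 120, 184 and 145 RPKM, highest in JQ1+. Bank1, a B cell scaffold that binds Lyn, stood at 57.8, 76.3 and 50.8 RPKM. Grb2, the general adaptor to Ras, stood at 183, 161 and 228 RPKM, on opposite sides of DMSO in the drugs. Dok3, an inhibitory adaptor, stood at 29.9, 30.4 and 18.5 RPKM, and Dapp1, which binds phosphoinositides, at 45.5, 38.6 and 35.3 RPKM.

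The phosphoinositide 3-kinase subunit genes stayed inside the 2-fold rule, both highest in JQ1+. The catalytic subunit gene Pik3cd stood at 132, 153 and 119 RPKM, and the regulatory subunit gene Pik3r1 at 35.7, 48.2 and 36.2 RPKM. Their ratio lay between 3.18 and 3.70 over the 3 libraries. Among exchange factors, which load Rac or Ras with GTP, Vav1 stood at 96.4, 100 and 92.6 RPKM and Vav2 at 60.0, 63.5 and 82.5 RPKM. Both Ras activators of the Rasgrp family were above DMSO in both drugs. Rasgrp1 stood at 17.7, 28.9 and 31.1 RPKM, and Rasgrp3 at 31.2, 48.9 and 53.1 RPKM. The ratio of Rasgrp1 to Rasgrp3 was 0.566, 0.591 and 0.586 in DMSO, JQ1+ and flavopiridol, with overlapping intervals, the steadiest of the 12 pairs compared.

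Of the phospholipase gene and the 5 genes downstream of it, only Nfatc1 passed the rule. Nfatc1, a transcription factor that moves to the nucleus when calcium rises, stood at 16.8 RPKM in DMSO, 47.1 in JQ1+ and 22.9 in flavopiridol. It rose 2.80-fold with JQ1+ (interval 2.59 to 3.03) and was 2.06-fold higher in JQ1+ than in flavopiridol (interval 1.91 to 2.21). The call between the drugs, at a log2 difference of 1.01, was lost with a pseudocount of 5 RPKM, at 0.90. Its relative Nfatc2 was far lower, at 2.11, 3.48 and 2.29 RPKM.

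Within the arm that leads to NF-kB, the subunits of one complex differed. Malt1, a protease and scaffold, stood at 78.1, 136 and 109 RPKM, while its partner Bcl10 stood at 100.2, 99.7 and 97.8 RPKM. The ratio of Bcl10 to Malt1 was 1.28 in DMSO (interval 1.20 to 1.37), 0.731 in JQ1+ (0.686 to 0.780) and 0.898 in flavopiridol (0.837 to 0.963). Bcl10 was thus the higher of the 2 per length only in the DMSO library. Prkcb, the protein kinase C that acts upstream of them, stood at 69.3, 117 and 70.2 RPKM, higher in JQ1+ alone. Plcg2 stood at 248, 322 and 239 RPKM, again highest in JQ1+.

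Of the 4 phosphatases only Ptprj passed the rule. Ptprj encodes CD148, a receptor-type tyrosine phosphatase that can activate Src-family kinases by removing their inhibitory phosphate. It stood at 12.0 RPKM in DMSO, 50.2 in JQ1+ and 33.4 in flavopiridol. It rose 4.17-fold with JQ1+ (interval 3.85 to 4.53) and 2.78-fold with flavopiridol (interval 2.55 to 3.03). Ptprc, the gene of CD45, which shares that role, stood at 228, 312 and 235 RPKM and remained far higher than Ptprj per length. The ratio of Ptprj to Ptprc was 0.0528 in DMSO (interval 0.0490 to 0.0569), 0.161 in JQ1+ (0.154 to 0.168) and 0.142 in flavopiridol (0.135 to 0.150). It was the widest shift of the 12 pairs, 3.05 times from lowest to highest. The inhibitory phosphatase genes stayed inside the rule. Ptpn6, which encodes SHP1, stood at 350, 384 and 363 RPKM, and Inpp5d, which encodes the lipid phosphatase SHIP1, at 116, 117 and 93.7 RPKM. Of the Ptpn6 exon length 6.96% overlaps Gm20531 on the opposite strand, which stood at 76.0, 81.9 and 75.2 RPKM, so a part of its reads is uncertain. Opposite-strand overlaps are also annotated for Cd22 (9.50% of exon length), Lyn (6.09%), Cd81 (3.61%) and Cd37 (0.369%). The partners of Cd22 and Lyn, Gm29439 and Gm26857, were not matched in the tables.

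**Figure D4:**
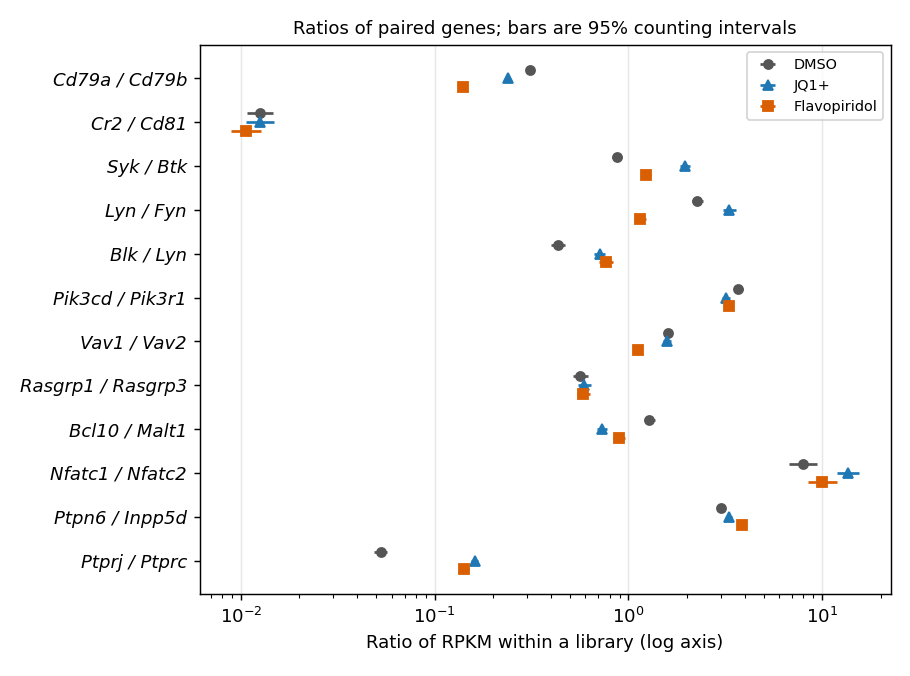
Ratio of RPKM of the 12 gene pairs within each library on a log axis, with 95% counting intervals. Ptprj to Ptprc lies lowest in DMSO (0.0528), Cd79a to Cd79b lowest in flavopiridol (0.139), and Rasgrp1 to Rasgrp3 nearly in the same place in all libraries.

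The promoter sequences of these genes were examined for features that the choice by name did not use. RefSeq promoters (build GRCm38.p6, from 250 bases before to 50 after the start) were found for 32 of the 38 genes, at 42 start sites. Motifs were searched on both strands, and the matches marked below do not overlap each other. The ETS-type motif AGGAAGT was in 15 of the 42 (35.7%), against 9.35% of all 32851 promoters. The E-box CAGGTG was in 16 of 42 (38.1%), against 20.2%. The GC box GGGCGG was in 17 of 42 (40.5%), against 35.7%, the MYC-type E-box CACGTG in 3 (7.14%), against 7.15%, and the sequence TATAAA in 7 (16.7%), against 13.6%. The octamer ATGCAAAT was in 2 promoters, those of Blnk and Prkcb (4.76%, against 1.74%), and the EBF1 palindrome, TCCC and GGGA with 2 bases between, in that of Cd22 alone (2.38%, against 0.904%). Start sites of 1 gene can overlap, so the 42 are not independent, and a match is not evidence of binding.

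Promoters of 4 genes are shown because their values moved in different ways: Cd79a, lower in flavopiridol only, Cd22, lower in both drugs, and Syk and Ptprj, higher in both. Capitals mark AGGAAGT in Cd79a (chr7:24897247-24897546, plus strand), the EBF1 palindrome in Cd22 (chr7:30878979-30879278, minus strand), CAGGTG in Syk (chr13:52583187-52583486, plus strand) and GGGCGG in Ptprj (chr2:90580546-90580845, minus strand), on either strand. Only 1 motif is marked in each promoter, and CAGGTG is also present, unmarked, in those of Cd79a and Cd22. For Syk and Ptprj the more upstream of 2 listed starts is shown.
Cd79a: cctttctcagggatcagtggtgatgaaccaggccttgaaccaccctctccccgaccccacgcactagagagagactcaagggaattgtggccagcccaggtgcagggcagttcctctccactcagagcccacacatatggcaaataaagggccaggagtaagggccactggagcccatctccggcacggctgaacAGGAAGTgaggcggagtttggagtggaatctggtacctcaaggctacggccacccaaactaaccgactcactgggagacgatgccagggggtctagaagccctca
Cd22: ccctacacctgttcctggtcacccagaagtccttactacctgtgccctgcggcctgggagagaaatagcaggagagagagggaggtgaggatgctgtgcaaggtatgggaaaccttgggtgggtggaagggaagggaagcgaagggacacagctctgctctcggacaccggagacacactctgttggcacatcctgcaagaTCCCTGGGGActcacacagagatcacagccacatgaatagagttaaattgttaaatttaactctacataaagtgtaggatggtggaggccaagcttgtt
Syk: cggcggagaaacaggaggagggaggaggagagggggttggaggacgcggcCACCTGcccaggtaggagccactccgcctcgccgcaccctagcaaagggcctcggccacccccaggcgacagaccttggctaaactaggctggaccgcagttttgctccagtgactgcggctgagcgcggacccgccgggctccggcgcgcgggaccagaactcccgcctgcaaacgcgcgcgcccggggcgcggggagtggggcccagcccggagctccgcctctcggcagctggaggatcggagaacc
Ptprj: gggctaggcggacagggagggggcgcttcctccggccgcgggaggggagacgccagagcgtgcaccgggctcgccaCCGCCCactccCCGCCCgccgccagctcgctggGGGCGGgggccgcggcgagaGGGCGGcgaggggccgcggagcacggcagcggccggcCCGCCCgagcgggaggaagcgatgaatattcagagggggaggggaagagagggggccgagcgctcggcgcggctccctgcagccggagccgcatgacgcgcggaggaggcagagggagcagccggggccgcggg
The starts shown for Syk and Ptprj held 72.0% and 79.3% G and C, with 31 and 42 CpG pairs, and that of Ptprj held 5 GC boxes. The other listed starts of these genes held 48.0% and 45.0%, with 2 and 6 CpG pairs. The promoters of Cd79a and Cd22 held 58.3% and 52.3% G and C, with 8 and 4 CpG pairs, and the median of all promoters was 52.7%. Which start these cells use was not measured. The 14 genes with AGGAAGT were Blnk, Cd37, Cd53, Cd72, Cd79a, Dapp1, Grb2, Inpp5d, Nfatc2, Ptpn6, Ptprc, Rasgrp3, Vav1 and Vav2, none of which passed the 2-fold rule in any comparison with the values as deposited. Of the 6 genes that did pass, Ms4a1, Blk and Nfatc1 had no listed promoter. Only Syk, Ptprj and Cd38 therefore passed among the 32 genes with one, too few to relate the motif to change. Cd79a passed after median-of-ratios rescaling, as given above.

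Other genes of antigen receptor signalling, a list of 99 from textbook knowledge, gave a background for the 38, and 89 of them were measured. With JQ1+ 1 of 89 rose (1.12%) and 5 fell (5.62%), with flavopiridol 3 rose (3.37%) and none fell, shares that lie beside the percentages of all genes above. Their median log2 change was -0.01 with JQ1+ and 0.02 with flavopiridol. Tec, a kinase of the Btk family, rose with both drugs, from 17.6 RPKM in DMSO to 50.9 in JQ1+ and 46.2 in flavopiridol. Cd24a, a surface glycoprotein gene, stood at 446, 818 and 1259 RPKM and rose with flavopiridol, as did the calcineurin subunit gene Ppp3ca, from 46.3 to 95.8 RPKM. Ppp3ca passed narrowly, at a log2 change of 1.03. It no longer passed with a pseudocount of 5 RPKM or under each rescaling of the libraries.

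The 5 falls with JQ1+ in the wider pathway were a share near that of all genes. The inhibitory adaptor gene Dok2 fell by 3.49 on the log2 scale, the lipid phosphatase gene Inppl1, a relative of Inpp5d, by 2.05, and the inhibitory receptor gene Pecam1 by 1.88. The adaptor gene Gab2 fell by 1.26 and the transcription factor gene Mef2c by 1.08. These 2 calls depend on the setting. Gab2, a low gene, no longer fell with a pseudocount of 5 RPKM. Mef2c passed narrowly and no longer fell under rescaling by the median of ratios or TMM factors. Inppl1 stood at 24.5, 5.16 and 12.8 RPKM in DMSO, JQ1+ and flavopiridol, while Inpp5d held near its control level with JQ1+. Between the drugs 2 of 89 were higher in JQ1+, beside 2.06% of all genes: the calcium channel gene Itpr3 and the ubiquitin ligase gene Cblb. There were 6 lower, beside 6.87% of all genes: Dok2, Gab2, Fcgr2b, Inppl1, Mef2c and Pecam1.

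The other inhibitory receptor genes of the list did not pass the rule against DMSO. The inhibitory Fc receptor gene Fcgr2b stood at 53.9, 46.8 and 107 RPKM, the drugs lying on opposite sides of DMSO. With flavopiridol it was 1.99 times DMSO (interval 1.87 to 2.12), just inside the 2-fold rule. Cd5, an inhibitory receptor of B-1 cells and T cells, stood at 0.987, 0.577 and 1.10 RPKM, and Lair1 at 0.289, 0.112 and 0.201 RPKM, both under the minimum level. Pirb stood at 1.28, 1.85 and 2.23 RPKM.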

How the data were processed

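Each of the 3 libraries had a table of 33700 rows. Per the file headers it holds, for each gene, a whole-number read count without normalisation. Beside it stands an RPKM that the authors scaled to gene length and to a library total, again per the file headers. RNA was total RNA depleted of ribosomal RNA, per the labels' protocols, and the genome build was mm9, per the submitters' processing notes. Aligner, counting program, annotation and strand setting: not given in the sources used here. Groups follow the treatment label, although the culture label of the drug samples repeats the wording for DMSO. The labels do not say whether cultures shared mice.

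Where a symbol had more than 1 row (94 symbols), its highest row by mean was kept. Changes were log2 of RPKM + 1 (pseudocount 1) over genes whose mean reached 1 RPKM, called at a size of 1 or more. With 1 library a group no count model could be fitted, and no test was run. Library totals behind the RPKM were computed from GENCODE M21 exon lengths, by identifier, over genes of at least 1000 counts, where 45.2% to 45.5% of genes matched within 0.1%. Counts summed to 2.84, 2.72 and 2.92 times those totals, for a reason not stated, and were divided by 2.83 so as not to narrow the 95% exact conditional binomial intervals. The interval and call code was tested on simulated data. Rescaling used edgeR 4.0.16 TMM factors or the median of ratios, and the other alternatives are given at the end. Python 3.11.15, pandas 2.3.3, numpy 2.4.6, scipy 1.17.1 and R 4.3.3 were used.

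The named genes were all 38 members, and of the wider pathway list those past the 2-fold rule with Fcgr2b and Cd5. A few other genes that the rule covers are left out here, also from the list counts. The members, lists, pairs, motifs and tests were chosen with earlier results of these data known.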

Additional observations from a re-analysis of the deposited data

How the results depend on the processing

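No paired analysis was possible because each treatment has 1 library. Leaving out a library removes both comparisons that use it and leaves the other as it is. Of 906 values for single members under alternatives, 226 moved by more than the distance from the middle to the end of their counting interval. Changes of the minimum level and the restriction to protein-coding genes only select genes, so their part of the 906 could not move. No called value changed sign, but scale factors between 0.887 and 1.075 could not reverse a 2-fold call. Median-of-ratios rescaling changed the medians of all genes to 0.01, -0.03 and 0.04 for JQ1+ against DMSO, flavopiridol against DMSO and JQ1+ against flavopiridol, and the lower share of called genes from 72.7%, 44.8% and 77.0% to 64.4%, 61.5% and 53.0%.

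By median of ratios the median of the 38 was 0.38, -0.14 and 0.59 in those comparisons, and by TMM factors 0.37, -0.14 and 0.57. Scaling by the sum of the counts gave 0.42 for JQ1+ against flavopiridol. With flavopiridol 2 of the 38 fell by median of ratios, 2 by TMM factors (Cd22 and Cd79a) and 1 by the sum of the counts (Cd22), beside 3.97%, 3.96% and 3.06% of all genes. JQ1+ against flavopiridol gave 4 higher under each of these scalings (Cd38, Nfatc1, Siglecg and Cd79a) and 1 with a pseudocount of 5 RPKM, where 3.52%, 3.36%, 2.52% and 0.744% of all genes were higher. At a log2 change of 0.6 the 38 gave 11 higher and 2 lower with JQ1+, 6 and 6 with flavopiridol, and 7 and 1 between the drugs. The shares of all genes at 0.6 are given with these counts above.

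In the wider pathway list with JQ1+, 3 of 89 rose with a pseudocount of 0.1 RPKM, beside 3.4% of all genes. Under each scaling 2 rose, beside 2.59% by median of ratios, 2.49% by TMM factors and 2.33% by the sum of the counts. With a pseudocount of 5 RPKM 4 fell with JQ1+, without Gab2, beside 2.45% of all genes. Mef2c no longer fell by median of ratios or TMM factors. With flavopiridol 4 of 89 fell by median of ratios or TMM factors, against 0 as deposited, beside 3.97% and 3.96% of all genes. A pseudocount of 5 RPKM left 2 rises with flavopiridol, without Ppp3ca, beside 0.94% of all genes. Ppp3ca no longer rose under each scaling. Between the drugs a pseudocount of 5 RPKM gave 1 higher and 3 lower, beside 0.744% and 2.22% of all genes. Median of ratios or TMM factors gave 3 higher and 2 lower. Beside these, 3.52% and 3.36% of all genes were higher and 3.97% and 4.08% lower. At 0.6 the list gave 9 higher and 9 lower with JQ1+, beside 5.81% and 12.2% of all genes. It gave 7 and 6 with flavopiridol, beside 11.5% and 7.30%, and 7 and 9 between the drugs, beside 5.27% and 20.0%. Restriction to protein-coding genes, chosen after seeing the data, only selects genes and could not change the value of any gene. Every count of the 38 and of the list stayed within 1.5 times, which is therefore no support for them. The share of all genes higher went from 1.98% to 1.02%, 3.55% to 2.30% and 2.06% to 0.742% in those comparisons. With undivided counts the intervals are narrower, and 4, 5 and 3 of the 38 included a ratio of 1, beside 7, 7 and 5. Depth limits Cr2 and Nfatc2 most.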
